A study of Mus musculus with 5 samples.

Results

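The T-box transcription factor genes were examined in mouse hair follicle stem cells in which loss of Polycomb repressive complex 1 (PRC1) was induced, and in their controls. The genes were 10 listed symbols of the family, namely Tbx1, Tbx2, Tbx3, Tbx4, Tbx5, Tbx6, Tbx15, Tbx18, Tbx20 and Eomes, and all 10 were found by symbol among the 30840 features of the deposited table. Polyadenylated RNA was sequenced from 5 samples of 50000 sorted cells each. PRC1 i2KO (3 samples, numbered 1, 2 and 3) carried K15-CrePR1, which makes a progesterone-receptor-fused Cre active under RU-486 in cells that use the keratin 15 promoter, with Ring1a-/- and Ring1b flox/flox. Control (2 samples, numbered 2 and 3) carried Ring1a-/- and Ring1b flox/flox without that Cre, so both groups carried the Ring1a-/- genotype. RU-486 (1%) was applied to the mice of both groups once a day, starting at postnatal day 50 and lasting 10 days, and back skin was collected 10 days later, at postnatal day 70. Cells were sorted as EpCAM positive, Sca1 negative, high for α6-integrin and positive for CD34. Nothing in the labels ties replicates to separate animals, so each p-value reflects the spread among these libraries, and part of that may be technical.

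T-box proteins share a DNA-binding domain, the T-domain, that reads a common short half-site, and members act as activators or repressors of transcription. In vertebrate embryos they pattern the limbs, heart, pharynx, somites and early mesoderm, and many developmental regulators of this kind are kept silent by Polycomb outside the lineages that use them. PRC1 places ubiquitin on histone H2A through Ring1a or Ring1b. In mouse hair follicle stem cells the member best known is Tbx1, which supports their self-renewal.

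Levels within a gene are given as CPM, the count relative to a library size scaled by TMM, and levels between genes as TPM, which the authors scaled for transcript length. Totals were 25461650, 43307694 and 34669748 counts in PRC1 i2KO 1, 2 and 3, against 42916190 and 11626006 in Control 2 and 3. A single count was therefore worth between 0.0226 and 0.0458 CPM in PRC1 i2KO, against 0.0203 and 0.0793 CPM in Control 2 and 3. The share of counts on mitochondrial rRNA was 29.7%, 21.4% and 32.0% in PRC1 i2KO 1, 2 and 3, against 16.7% and 22.6% in Control 2 and 3. The targeted gene Rnf2, which encodes Ring1b, was at 39.9, 33.1 and 36.4 CPM in PRC1 i2KO and at 27.7 and 37.5 CPM in Control (edgeR adjusted p = 0.870). In TPM it was at 16.8, 12.9 and 11.7 in PRC1 i2KO and at 25.1 and 24.4 in Control, lower in every PRC1 i2KO library, as 23.0% of all genes were. Ring1, which encodes Ring1a, was at 2.29, 1.58 and 3.67 CPM in PRC1 i2KO and at 1.87 and 5.0 CPM in Control. As a value per gene combines exons inside and outside the deletion, these rows do not settle the labels. The defining markers of the sorted cells were present: all 15 listed bulge keratinocyte markers were in the table and tested, with Krt15 at 4427, 5076 and 3418 CPM in PRC1 i2KO and at 4270 and 4358 CPM in Control. The sort marker Cd34 was at 298, 292 and 164 CPM in PRC1 i2KO and at 477 and 326 CPM in Control (edgeR adjusted p = 0.422).

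The family as a whole was carried by a single gene in both groups. Tbx1 made up 90.9%, 88.5% and 83.3% of the summed TPM of the 10 genes in PRC1 i2KO 1, 2 and 3, against 98.0% and 97.5% in Control 2 and 3. The other 9 genes summed to 5.10, 6.80 and 8.32 TPM in PRC1 i2KO 1, 2 and 3, against 1.69 and 1.32 TPM in Control 2 and 3. All 3 PRC1 i2KO libraries thus lay above both controls in this sum, and Tbx15, Tbx3, Tbx18 and Tbx6 held most of it in PRC1 i2KO.

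**Figure D1:**
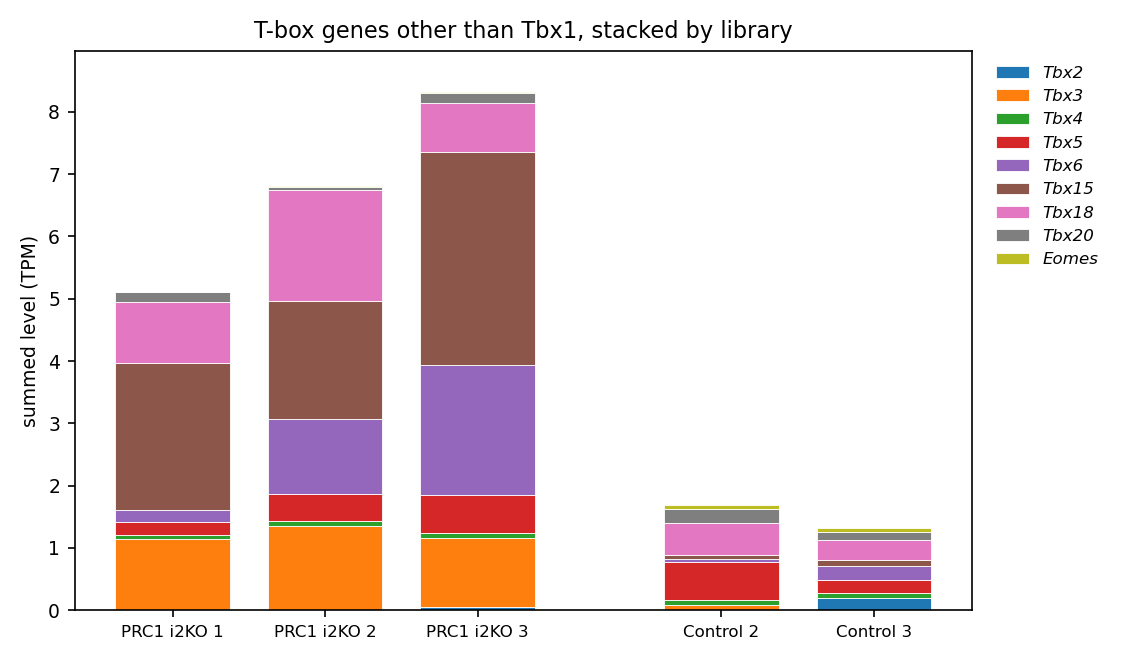
Summed level in TPM (vertical axis) of the 9 T-box genes other than Tbx1, with a bar for each library and a colour for each gene. The bars reach 5.10, 6.80 and 8.32 TPM in PRC1 i2KO 1, 2 and 3, against 1.69 and 1.32 TPM in Control 2 and 3.

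Of the 10 genes, 7 had enough counts to be tested (at least 0.288 CPM in 2 or more libraries), and Tbx2, Tbx4 and Eomes did not. By edgeR's quasi-likelihood test, adjusted with Benjamini-Hochberg over all 22181 genes tested, 0 of the 7 passed a threshold of 0.05 as higher, where 0.126% of all genes did, and 0 as lower, where 0% did. At an unadjusted p under 0.05, 4 of the 7 were higher (Tbx15, Tbx3, Tbx18 and Tbx6), against 7.43% of all genes, and 0 were lower, against 3.51%. In 3 of the 7 (Tbx3, Tbx15 and Tbx18) every PRC1 i2KO library lay above both controls in CPM, as in 14.6% of all genes, and in 0 of the 7 every one lay below, as in 15.3%. In TPM the members' counts were again 3 and 0, against 7.01% and 23.0% of all genes. Only Tbx1, Tbx5, Tbx18 and Tbx20 reached the filter level in both controls. Tbx3, Tbx6 and Tbx15 reached it in 1 control each and entered the test through PRC1 i2KO, so they could hardly come out lower and these counts do not stand as evidence for the family. DESeq2 called 3 members higher, Tbx15, Tbx3 and Tbx18, where it called 3.57% of its genes higher, and 0 lower, where it called 0.786%. Without the filter on low counts, edgeR called 2 members higher (Tbx3 and Tbx15; 0.457% of all genes) and 0 lower (0.0392%), and with a replicate block by title number 2 and 0 (0.631% and 0.113% of all genes). Neither limma-voom nor limma on log2 TPM called a member.

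**Figure D2:**
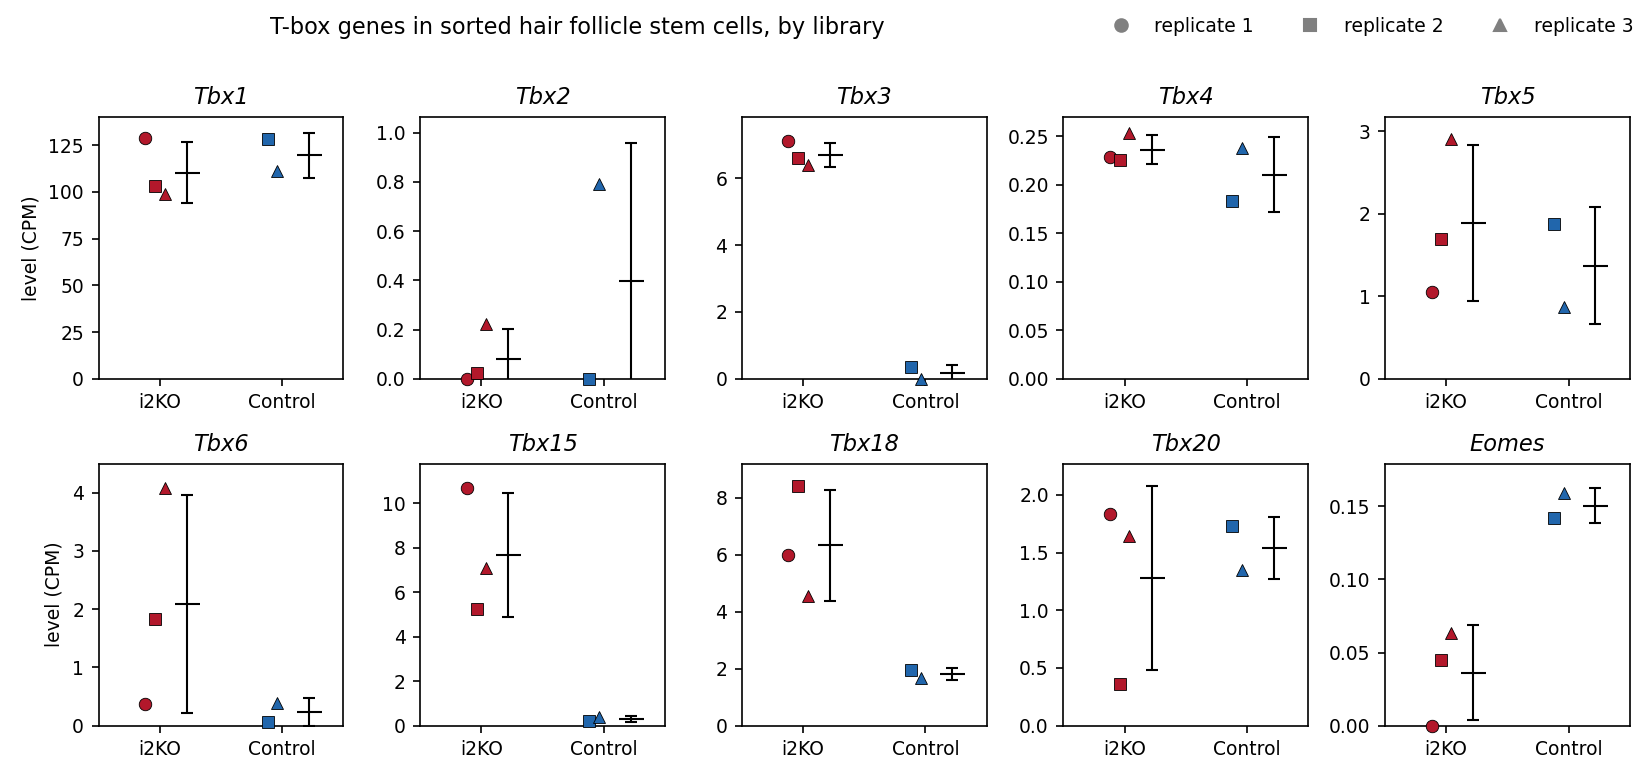
Level in CPM (vertical axis, a scale for each gene, from 0) of the 10 T-box genes in PRC1 i2KO (red, left) and Control (blue, right), with a symbol for each replicate and the mean ± SD (n = 3 and n = 2) beside the points. For Tbx3, Tbx15 and Tbx18 the red points all lie above the blue ones, while Tbx1, Tbx4, Tbx5 and Tbx20 overlap.

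Tbx1 (ENSMUSG00000009097.10, chromosome 16), a regulator of pharyngeal development and of bulge stem cell self-renewal in mice, was the abundant member. It stood at 129, 103 and 98.9 CPM in PRC1 i2KO 1, 2 and 3, against 128 and 111 CPM in Control 2 and 3. The groups overlapped, with PRC1 i2KO 1 as high as Control 2. The log2 fold change was -0.12 ± 0.20 (SE; edgeR adjusted p = 0.885). In TPM it was at 50.8, 52.1 and 41.5 in PRC1 i2KO, against 81.1 and 51.9 in Control, so that Control 2 stood alone above the other 4 libraries. On the log2(TPM + 1) scale the difference was -0.43 (limma adjusted p = 0.587), on a scale where the median of all tested genes was -0.19. RefSeq gives Tbx1 a pair of starts, with 10 CpG dinucleotides in the 250 bases before the upstream start and 17 before the downstream start, where the median over 32851 RefSeq promoters was 6 (interquartile range 2 to 16). Both stretches (GRCm38.p6, minus strand, CpG in capitals; chr16:18590672-18590921 upstream and chr16:18588900-18589149 downstream) are shown as those of the member with the highest level in control cells.
Tbx1, upstream start: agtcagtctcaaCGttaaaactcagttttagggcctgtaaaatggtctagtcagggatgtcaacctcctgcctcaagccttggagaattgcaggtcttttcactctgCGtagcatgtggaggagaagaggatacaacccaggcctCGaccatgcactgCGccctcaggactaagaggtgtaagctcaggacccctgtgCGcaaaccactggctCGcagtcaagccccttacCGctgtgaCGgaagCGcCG
Tbx1, downstream start: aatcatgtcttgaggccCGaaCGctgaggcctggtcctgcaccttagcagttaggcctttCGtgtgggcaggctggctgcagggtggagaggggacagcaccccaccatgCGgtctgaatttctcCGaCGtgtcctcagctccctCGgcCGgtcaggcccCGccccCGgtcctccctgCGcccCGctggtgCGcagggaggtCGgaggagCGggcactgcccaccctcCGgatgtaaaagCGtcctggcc

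Tbx15 and Tbx18 belong to the same subfamily as Tbx1. Both are best known from mesenchyme: Tbx15 acts in the dermis, where it sets the dorsal and ventral coat pattern of the mouse, and Tbx18 in the epicardium, ureter mesenchyme and mural cells. Tbx15 (ENSMUSG00000027868.11, chromosome 3) was at 10.7, 5.23 and 7.09 CPM in PRC1 i2KO 1, 2 and 3 (234, 232 and 224 counts), against 0.203 and 0.397 CPM in Control 2 and 3 (10 and 5 counts). All PRC1 i2KO libraries were high and both controls were near the bottom of the range. The log2 fold change was 4.76 ± 0.76 (SE; edgeR adjusted p = 0.0679), the 49th smallest p of all genes tested, and the ratio of pooled CPM was 29.1 with a 95% counting interval of 17.5 to 52.3.

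The counts and the TPM of Tbx15 ordered the PRC1 i2KO libraries differently. In TPM it was at 2.35, 1.90 and 3.41 in PRC1 i2KO 1, 2 and 3, against 0.0717 and 0.102 in Control 2 and 3, so PRC1 i2KO 3 was highest in TPM and PRC1 i2KO 1 in CPM. Dividing count by TPM gives an effective transcript length, which, relative to the control mean and with the shift common to all genes removed, came to 0.992, 0.773 and 0.486 in PRC1 i2KO 1, 2 and 3, against 1.00 and 0.999 in Control 2 and 3. In PRC1 i2KO 3 this is below 0.651, the 2.5th percentile of 13575 genes with at least 20 counts in every library, and in PRC1 i2KO 2 it is within the range, whose lower end is 0.659. For Tbx1, Tbx5, Tbx18 and Tbx20 the same ratio stayed between 0.986 and 1.01 in all 5 libraries. In the control libraries the Tbx15 ratio rests on 10 and 5 counts. The antisense gene Gm43120, which overlaps Tbx15 on the opposite strand, was at 0, 0.677 and 0.601 CPM in PRC1 i2KO 1, 2 and 3 and at 0 CPM in both controls (edgeR adjusted p = 0.418). Use of strand in the counting is not given in these sources, so reads of the overlapping stretch cannot be assigned to either gene.

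Tbx18 (ENSMUSG00000032419.8, chromosome 9) was already detected in control cells. It stood at 6.0, 8.41 and 4.55 CPM in PRC1 i2KO 1, 2 and 3, against 1.95 and 1.67 CPM in Control 2 and 3. The lowest PRC1 i2KO library was still above both controls. The log2 fold change was 1.80 ± 0.59 (SE), a 3.48-fold difference that did not pass (edgeR adjusted p = 0.315). In TPM the order was the same, with 0.988, 1.78 and 0.802 in PRC1 i2KO and 0.511 and 0.325 in Control. The opposite-strand gene D030062O11Rik, which overlaps Tbx18, had at most 0.221 CPM in PRC1 i2KO and 0 CPM in both controls. The 250 bases before the Tbx18 start hold 15 CpG, and those before the Tbx6 start hold 6. They are shown (GRCm38.p6, CpG in capitals) as the promoters in the RefSeq table of members with an unadjusted p under 0.05: Tbx18 at chr9:87731261-87731510 on the minus strand and Tbx6 at chr7:126781233-126781482 on the plus strand.
Tbx18: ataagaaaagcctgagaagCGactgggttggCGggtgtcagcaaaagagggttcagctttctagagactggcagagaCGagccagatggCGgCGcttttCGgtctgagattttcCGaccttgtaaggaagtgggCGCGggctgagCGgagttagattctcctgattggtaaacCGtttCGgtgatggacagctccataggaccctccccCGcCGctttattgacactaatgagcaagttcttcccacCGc
Tbx6: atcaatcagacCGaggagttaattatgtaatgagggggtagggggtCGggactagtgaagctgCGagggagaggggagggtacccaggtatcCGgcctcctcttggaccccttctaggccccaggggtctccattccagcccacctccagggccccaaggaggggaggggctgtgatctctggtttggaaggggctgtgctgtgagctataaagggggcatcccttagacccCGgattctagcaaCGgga

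The RefSeq table matched 6 of the 10 genes, Tbx1 (with both starts), Tbx4, Tbx6, Tbx18, Tbx20 and Eomes. Their windows held 10 and 17, 6, 6, 15, 22 and 8 CpG, so the member with most CpG, Tbx20, was one whose level overlapped between the groups. The T-box half-site GGTGTGA was searched on both strands (reverse complement TCACACC), and it overlaps no other motif searched. It was found in 0 of these 7 windows, against 3.33% of all windows of the same length, which says only that these letters are not in these stretches.

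Tbx20 (ENSMUSG00000031965.15, chromosome 9), a cardiac regulator of the same subfamily, was at 1.83, 0.361 and 1.64 CPM in PRC1 i2KO 1, 2 and 3, against 1.73 and 1.35 CPM in Control 2 and 3. PRC1 i2KO 2 stood alone as low, and the other libraries of both groups lay close together. The log2 fold change was -0.28 ± 0.92 (SE; edgeR adjusted p = 0.952), or 0.17 without PRC1 i2KO 2.

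The Tbx2 subfamily holds Tbx2 and Tbx3, which are mostly repressors, and Tbx4 and Tbx5, which start hindlimb and forelimb growth and act in lung and heart. Tbx2 and Tbx4 lie near each other on chromosome 11, and Tbx3 and Tbx5 on chromosome 5. Tbx3 (ENSMUSG00000018604.18) was at 7.10, 6.61 and 6.39 CPM in PRC1 i2KO 1, 2 and 3 (155, 293 and 202 counts), against 0.345 and 0 CPM in Control 2 and 3 (17 and 0 counts). The 3 PRC1 i2KO values were close together, with a mean of 6.70 ± 0.365 CPM (SD, n = 3), against 0.173 ± 0.244 CPM in Control (SD, n = 2). The log2 fold change was 4.94 ± 1.00 (SE; edgeR adjusted p = 0.141), and the ratio of pooled CPM was 24.2 with a 95% counting interval of 15 to 41.8. The 0 in Control 3, the shallowest library, allows up to 0.238 CPM.

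The genes next to Tbx3 are given beside it. Tbx5 (ENSMUSG00000018263.11) was at 1.05, 1.69 and 2.91 CPM in PRC1 i2KO 1, 2 and 3, against 1.87 and 0.873 CPM in Control 2 and 3. The groups overlapped (log2 fold change 0.44 ± 0.83, edgeR adjusted p = 0.901). Tbx3os1, annotated on the opposite strand across Tbx3, was at 1.42, 3.02 and 3.48 CPM in PRC1 i2KO, against 4.16 and 2.54 CPM in Control (adjusted p = 0.907). In both controls it was above Tbx3, and, as use of strand in the counting is not given, reads of the overlapping stretch cannot be assigned to either gene. Tbx3os2, which lies between Tbx3 and Tbx5, was at 0.321, 0.271 and 0.0949 CPM in PRC1 i2KO, against 0.406 and 3.17 CPM in Control (log2 fold change -2.93 ± 1.18, adjusted p = 0.416). The difference between Tbx3 and either neighbour was not itself tested.

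The chromosome 11 pair was close to the limit of detection. Tbx4 (ENSMUSG00000000094.12) had 5, 10 and 8 counts in PRC1 i2KO 1, 2 and 3, against 9 and 3 in Control 2 and 3, or 0.229, 0.226 and 0.253 CPM against 0.183 and 0.238 CPM. Tbx2 (ENSMUSG00000000093.6) had 0, 1 and 7 counts in PRC1 i2KO, against 0 and 10 in Control. Its ratio of pooled CPM was 0.506 with a 95% counting interval of 0.174 to 1.42, and the 10 counts of Control 3 made all of the control signal. The 0 in PRC1 i2KO 1 allows up to 0.137 CPM and the 0 in Control 2 up to 0.0608 CPM.

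Tbx6 (ENSMUSG00000030699.16, chromosome 7), which specifies presomitic mesoderm, varied widely among the PRC1 i2KO libraries. It stood at 0.367, 1.83 and 4.08 CPM in PRC1 i2KO 1, 2 and 3 (8, 81 and 129 counts), against 0.0609 and 0.397 CPM in Control 2 and 3 (3 and 5 counts). PRC1 i2KO 1 lay below Control 3, so the groups overlapped. The log2 fold change was 3.35 ± 1.4 (SE; edgeR adjusted p = 0.428), and it was 2.41 without PRC1 i2KO 3 and 5.04 without Control 3. In TPM Tbx6 reached 2.09 in PRC1 i2KO 3, above Tbx3 and Tbx18 in that library, and was at 0.199 in PRC1 i2KO 1, below Control 3 at 0.230. The genes beside it, Ypel3 and Ppp4c, overlapped between the groups (adjusted p = 0.900 and 0.971).

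Eomes (ENSMUSG00000032446.14, chromosome 9), a regulator of mesendoderm, cortical progenitors and cytotoxic lymphocytes, had 0, 2 and 2 counts in PRC1 i2KO 1, 2 and 3, against 7 and 2 in Control 2 and 3. It was at most 0.0633 CPM in PRC1 i2KO and at 0.142 and 0.159 CPM in Control. Every PRC1 i2KO library was below both controls, but the ratio of pooled CPM was 0.281 with a 95% counting interval of 0.0633 to 1.01, and 2 counts in a library lie under the floor of 3. The T and NK cell and other immune markers, 12 of 15 in the table and 8 tested, summed to 13.0, 20.0 and 16.2 CPM in PRC1 i2KO, against 17.8 and 20.1 CPM in Control, with 0 called and a median log2 fold change of -0.07. Of their defining genes, Trac had 0 counts in 4 of the 5 libraries, while Cd3d was at 3.39, 7.47 and 3.67 CPM in PRC1 i2KO and at 6.40 and 8.25 CPM in Control. The pan-leukocyte gene Ptprc was at 1.74, 2.17 and 2.88 CPM in PRC1 i2KO and at 4.26 and 2.86 CPM in Control, and Cd3e was at 2.59 CPM in PRC1 i2KO 2 and at most 0.317 CPM elsewhere. Of the 8 tested, the log2 fold change was above 0 in 3 and below 0 in 5. Cd74 was at 2.25, 2.41 and 6.71 CPM in PRC1 i2KO, against 0.305 and 4.05 CPM in Control (edgeR adjusted p = 0.830). Cd207, not tested, had 60, 8 and 6 counts in PRC1 i2KO, against 0 and 1 in Control. Cd8a, a cytotoxic T cell gene, was at 0, 0.293 and 0.316 CPM in PRC1 i2KO, against 4.37 and 0.317 CPM in Control (edgeR adjusted p = 0.419), so Control 2 stood alone. Reads shared with Gm33460, annotated on the opposite strand across Eomes, cannot be told apart. Their part in the Eomes values was not tested.

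Ordered by mean TPM, the PRC1 i2KO libraries had Tbx1 (48.2 ± 5.79, SD, n = 3), Tbx15 (2.55 ± 0.775), Tbx3 (1.20 ± 0.128), Tbx18 (1.19 ± 0.519) and Tbx6 (1.17 ± 0.948) at the top. Tbx5 (0.415 ± 0.205), Tbx20 (0.113 ± 0.0640), Tbx4 (0.0701 ± 0.00823), Tbx2 (0.0191 ± 0.0278) and Eomes (0.0128 ± 0.0111) followed. Tbx1 stood apart in every library and Tbx15 exceeded Tbx3 in each of the 3, while Tbx3, Tbx18 and Tbx6 did not differ beyond their spread. Tbx5 exceeded Tbx20 in each of the 3, Tbx20 and Tbx4 overlapped, and so did Tbx2 and Eomes. In Control the order by mean TPM was Tbx1 (66.5 ± 20.7, SD, n = 2), Tbx18 (0.418 ± 0.132), Tbx5 (0.403 ± 0.286), Tbx20 (0.178 ± 0.0698), Tbx6 (0.138 ± 0.130) and Tbx2 (0.101 ± 0.142), with Tbx15, Tbx4, Eomes and Tbx3 at 0.0871, 0.0763, 0.0587 and 0.0443 TPM. There the ranges of neighbouring genes below Tbx1 overlapped, apart from those of Tbx4 and Eomes. Tbx15 was the second of the 10 in every PRC1 i2KO library and the seventh in both controls.

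Of the 8 other T-box symbols looked for, 4 were in the table. Mga, which joins a T-domain to a second DNA-binding domain and is itself a subunit of a variant PRC1, was at 243, 222 and 236 CPM in PRC1 i2KO, against 231 and 194 CPM in Control (log2 fold change 0.14 ± 0.17, edgeR adjusted p = 0.827). In TPM it was at 35.4, 43.7 and 38.3 in PRC1 i2KO, against 63.0 and 38.6 in Control, with Control 2 again the highest library, as for Tbx1. Tbr1, a cortical neuron factor of the Eomes subfamily, had 0, 0 and 45 counts in PRC1 i2KO, against 2 and 4 in Control (adjusted p = 0.862), so its signal came from PRC1 i2KO 3. Tbx21 and Tbx22 had at most 7 counts in any library and were not tested.

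**Figure D3:**
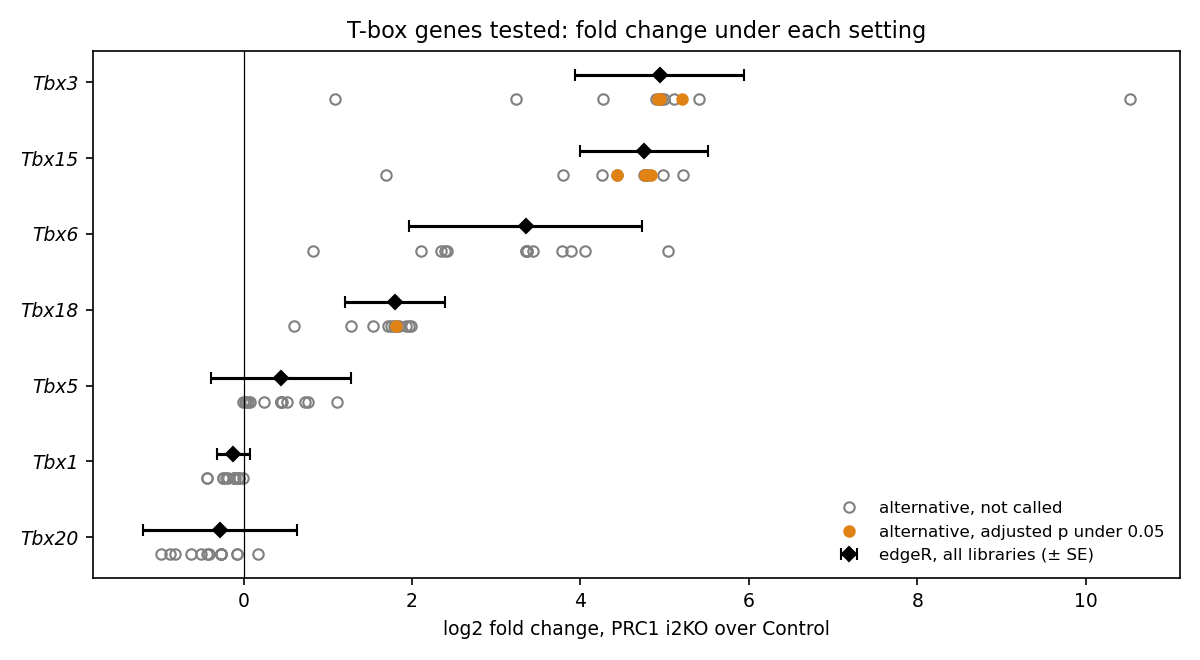
Log2 fold change of PRC1 i2KO over Control (horizontal axis) for the 7 T-box genes tested, with black diamonds and bars for edgeR on all libraries (± SE) and circles for the alternatives (orange where the adjusted p was under 0.05). Tbx3 and Tbx15 stay above 1 under each alternative, and the point of Tbx3 at 10.53 is the fit without Control 2, where the only control has 0 counts.

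Genes that act with or above T-box factors in embryos were read from a list of 25, of which 19 were in the table and 16 tested. By edgeR 1 gene, Pitx1, rose and 0 fell, where 0.126% and 0% of all genes did. At an unadjusted p under 0.05, 8 of the 16 were higher and 0 lower, against 7.43% and 3.51% of all genes. The median over the list was 1.5 on the log2 scale, where that of all tested genes was 0.01, and 11 of the 16 reached the filter level in both controls, so the others entered the test through PRC1 i2KO and these counts do not stand as evidence for the list. Pitx1, which acts upstream of Tbx4 in the mouse hindlimb, was at 8.80, 6.77 and 6.77 CPM in PRC1 i2KO, against 0.0203 and 0 CPM in Control (edgeR adjusted p = 0.0176). With 1 control count its ratio was 447, with a 95% counting interval of 79.9 to 17668. The call held under 6 of 14 alternatives: it was lost in limma-voom (adjusted p = 0.170), in both limma fits on TPM and with the block by description number. It was also lost when any library other than PRC1 i2KO 2 was left out, with an adjusted p of 0.0591 to 0.271, and in all of these the log2 fold change stayed above 0.

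Among 20 listed target genes of T-box factors, 17 were in the table and 14 were tested. By edgeR 0 rose and 0 fell. At an unadjusted p under 0.05, 2 of the 14 were higher and 0 lower, against 7.43% and 3.51% of all genes, 10 of the 14 reached the filter level in both controls, and the median log2 fold change was 0.37. Bmp4, which encodes a BMP ligand, had the smallest p, with 13.3, 10.6 and 9.58 CPM in PRC1 i2KO, against 1.52 and 0.714 CPM in Control (log2 fold change 3.26 ± 0.57, adjusted p = 0.0936). Slit3, a guidance ligand, averaged 52.6 ± 16.3 CPM in PRC1 i2KO and 31.5 ± 0.336 CPM in Control (adjusted p = 0.418), while in TPM its groups overlapped, with means of 13.6 in PRC1 i2KO and 13.1 in Control. Adam19, a metalloproteinase gene, averaged 0.804 ± 0.650 CPM in PRC1 i2KO and 0.0701 ± 0.0130 CPM in Control (adjusted p = 0.463).

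**Figure D4:**
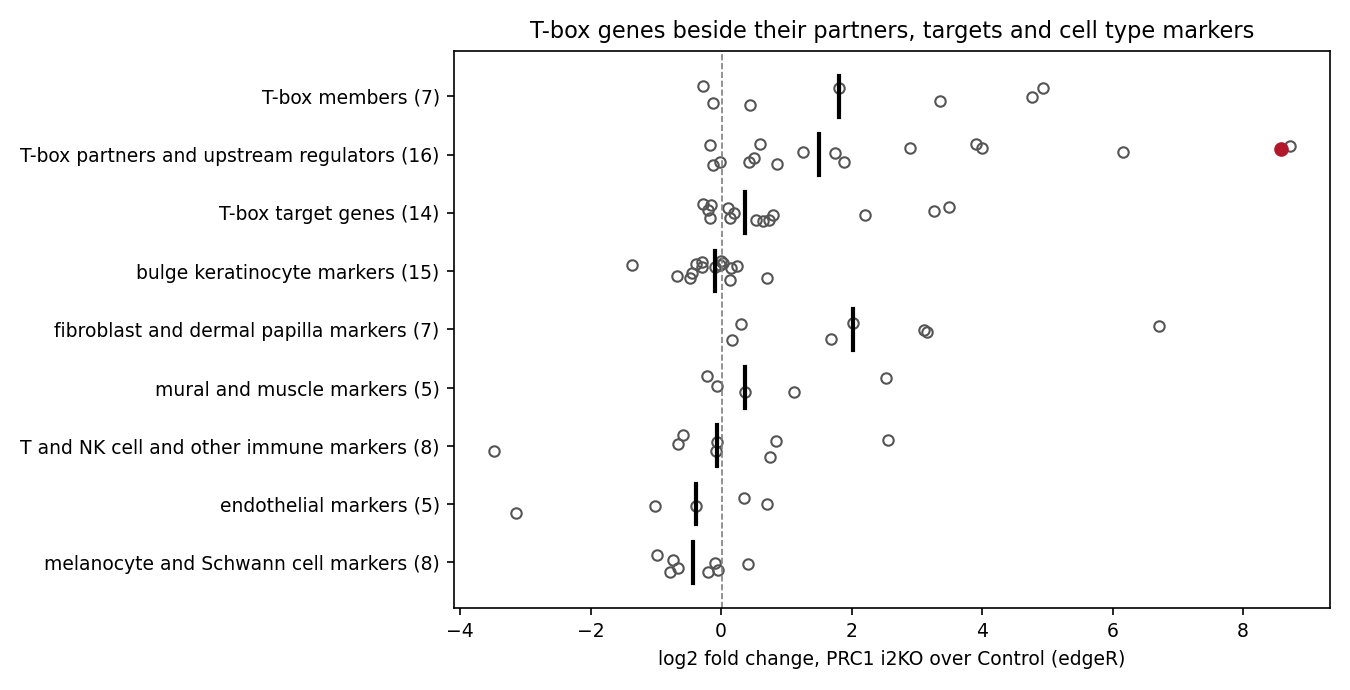
Log2 fold change of PRC1 i2KO over Control (horizontal axis) of each tested gene (circles; red where the edgeR adjusted p was under 0.05) in the T-box genes and the lists set beside them, with the number tested in parentheses, a black bar at each list's median and a dashed line at the median of all genes tested. The red point is Pitx1.

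Since Tbx15 and Tbx18 are genes of skin mesenchyme, markers of other cell types were read beside them. In bulk samples, fewer cells of a type and less RNA per cell cannot be told apart. Of 18 fibroblast and dermal papilla markers, 16 were in the table and 7 tested, with 0 called and a median log2 fold change of 2.02. At an unadjusted p under 0.05, 3 of the 7 were higher and 0 lower, against 7.43% and 3.51% of all genes. Only 5 of the 7 reached the filter level in both controls: Sox2, one of the 3, and Vcan did not and entered the test through PRC1 i2KO. Their summed level was 82.3, 82.7 and 73.5 CPM in PRC1 i2KO, against 35.9 and 32.7 CPM in Control. Pdgfra gave the smallest p, at 32.5, 25.4 and 16.0 CPM in PRC1 i2KO, against 3.37 and 2.22 CPM in Control (log2 fold change 3.11 ± 0.45, edgeR adjusted p = 0.0502). Col1a1 averaged 12.9 ± 6.08 CPM in PRC1 i2KO and 3.17 ± 0.336 CPM in Control (adjusted p = 0.215), with groups that overlapped in TPM. For Col1a2 and Hhip the groups overlapped in CPM. Col1a2 was at 13.3, 20.3 and 20.8 CPM in PRC1 i2KO, against 16.8 and 15.7 CPM in Control (adjusted p = 0.910). Hhip was at 8.71, 6.45 and 16.3 CPM in PRC1 i2KO, against 7.49 and 9.60 CPM in Control (adjusted p = 0.881). Sox2, a dermal papilla gene, had 13, 13 and 11 counts in PRC1 i2KO and 0 in both controls (adjusted p = 0.290). Of the 16, 9 were under 1 CPM in every library, among them Sox2 itself and the defining genes Col3a1, Twist2, Lum and Prrx1. Dcn was at 0.0917, 0.158 and 3.13 CPM in PRC1 i2KO, against 0.162 and 0.0793 CPM in Control. Crabp1, a dermal papilla gene, was at 15.2, 9.50 and 3.07 CPM in PRC1 i2KO, against 4.02 and 1.59 CPM in Control (adjusted p = 0.459). In CPM Pdgfra and Crabp1, like Tbx15, were highest in PRC1 i2KO 1. Col1a1, like Tbx18, was highest in PRC1 i2KO 2, and Col1a2, Hhip and Dcn in PRC1 i2KO 3. In TPM Pdgfra, Col1a1 and Col1a2, like Tbx18, were highest in PRC1 i2KO 2. Crabp1 was highest there in PRC1 i2KO 1, and Hhip and Dcn, like Tbx15, in PRC1 i2KO 3. The part of fibroblast and dermal papilla cells in the Tbx15 and Tbx18 values was not tested.

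Mural and muscle markers, 11 of 16 in the table and 5 tested, summed to 235, 253 and 225 CPM in PRC1 i2KO, against 258 and 256 CPM in Control, with 0 called and a median log2 fold change of 0.37. Cspg4, which encodes the NG2 proteoglycan, made up most of this sum, at 207, 230 and 194 CPM in PRC1 i2KO, against 247 and 243 CPM in Control (edgeR adjusted p = 0.689). Without it the other 10 summed to 27.3, 23.3 and 31.0 CPM in PRC1 i2KO, against 11.0 and 13.2 CPM in Control, so this sum was higher in every PRC1 i2KO library. Notch3 and Mcam made up most of this remainder, which was taken after the values were seen. For the other tested genes, Abcc9 and Ckm, the groups overlapped (edgeR adjusted p = 0.939 and 0.987). The mural genes Rgs5 and Myh11 were at most 0.159 CPM in any library. Mcam, an adhesion gene of mural and endothelial cells, averaged 6.25 ± 0.742 CPM in PRC1 i2KO and 1.10 ± 0.351 CPM in Control (SD; edgeR adjusted p = 0.200), and the receptor gene Notch3 averaged 17.5 ± 4.13 CPM in PRC1 i2KO and 8.12 ± 0.745 CPM in Control (adjusted p = 0.321). The part of these cells in the Tbx18 values was not tested. Endothelial markers (5 tested) summed to 17.3, 22.2 and 26.5 CPM in PRC1 i2KO and to 24.4 and 14.5 CPM in Control, with a median of -0.39. Pecam1 made up most of this sum in every library, with a log2 fold change of 0.35 (edgeR adjusted p = 0.780). Kdr was lower in every PRC1 i2KO library (edgeR adjusted p = 0.425), but it reached the filter level in Control only. For the other tested endothelial genes the groups overlapped in CPM. Melanocyte and Schwann cell markers (8 tested) summed to 119, 143 and 91.9 CPM in PRC1 i2KO and to 215 and 169 CPM in Control, with a median of -0.43. Mitf, the melanocyte regulator, made up most of this sum in every library. It averaged 100 ± 23.5 CPM in PRC1 i2KO and 174 ± 30.5 CPM in Control (adjusted p = 0.258). The log2 fold change was below 0 in 7 of the 8. For the tested genes other than Mitf the groups overlapped in CPM, apart from Mbp, which was higher in every PRC1 i2KO library. In TPM Dct and Tyr, like Mitf, were lower in every PRC1 i2KO library, as 23.0% of all genes were. The lower sum in CPM therefore reflects mainly Mitf, and whether a drop was shared by the list was not tested. The bulge keratinocyte markers had a median of -0.09. At an unadjusted p under 0.05, 1 of the 15 was higher (Krt14) and 5 were lower (Cd34, Lhx2, Nfib, Lgr5 and Fgf18), against 7.43% and 3.51% of all genes. Every PRC1 i2KO library was above both controls in 2 of the 15 and below in 6, against 14.6% and 15.3% of all genes, and Fgf18, a growth factor gene of the resting bulge, averaged 19.5 ± 6.91 CPM in PRC1 i2KO and 50.3 ± 5.78 CPM in Control (adjusted p = 0.188). In these lists 0 members were called.

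The genes on each side of the 10 members were taken by order of RefSeq start among the deposited features, up to 2 per side. Of 33 such genes, 27 were tested. By edgeR 0 passed in either direction. At an unadjusted p under 0.05, 1 was higher and 4 were lower, against 7.43% and 3.51% of all genes. Their median log2 fold change was -0.35, with every PRC1 i2KO library above both controls in 3 of them and below in 7, against 14.6% and 15.3% of all genes. Among the lower genes, Mir6481, Tbx3os2, Gm29824 and 4930588K23Rik reached the filter level in both controls and in no PRC1 i2KO library. They entered the test through Control and could hardly come out higher, so these counts do not stand as evidence for the neighbours. Aldoa, a glycolytic enzyme gene near Tbx6, had the smallest p, at 174, 132 and 112 CPM in PRC1 i2KO, against 71.2 and 71.1 CPM in Control (log2 fold change 0.97 ± 0.23, adjusted p = 0.181). Nt5e, an ectonucleotidase gene near Tbx18, was at 104, 153 and 129 CPM in PRC1 i2KO, against 193 and 187 CPM in Control (-0.57 ± 0.20, adjusted p = 0.344). Beside Tbx15, Mir6481 had at most 0.0677 CPM in PRC1 i2KO and 0.426 and 0.555 CPM in Control (adjusted p = 0.399). Wars2, annotated close to Tbx15 but not among the 33 genes, was at 14.8, 9.23 and 7.02 CPM in PRC1 i2KO, against 12.4 and 12.3 CPM in Control (edgeR adjusted p = 0.877).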

How the data were processed

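The authors deposited, for each feature and library, an expected count and a TPM value. Per the submitters' processing notes, DESeq2 1.38.2, RSEM 1.3.3 and STAR 2.7.9a were run and the build was mm39, with no roles given. The deposited expected counts, of which 61.5% of those above 0 were not whole (tolerance 0.001), were rounded. The TPM values, scaled by the authors for transcript length, were used as deposited. All genes were fitted together in edgeR 4.0.16 (R 4.3.3; filterByExpr with a minimum count of 10, TMM, group as the only term). The alternatives were RLE, no filter, DESeq2 1.42.0, limma 3.58.1 (voom, and log2 of TPM plus 1 or 0.1), no mitochondrial features, each library left out, and a block by title or by description number. The procedure was tested on simulated data. Counting intervals (95%, Clopper-Pearson, conditional on the total) and the floor of 3 counts cover counting error only. Gene names, strands and overlaps came from GENCODE M21 and promoters from RefSeq (GRCm38.p6). These differ from mm39, so no coordinate of the deposited data is given. The members and gene lists were chosen with earlier results of these data known, and 1 gene of the partner list was left out of its counts and is not reported here. All members were named, and of each other list the genes called, or otherwise genes among the 3 with the smallest p. Defining markers outside this rule (such as Krt15, Cd34, Crabp1, Dcn, Trac, Cd74 and Cd207) were chosen after their values were seen. Likeness between genes was the root mean square difference of centred log2 CPM over the 5 libraries.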

Additional observations from a re-analysis of the deposited data

How the results depend on the processing

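The count of 0 members called by edgeR was the same with RLE, without mitochondrial features, with limma-voom, with limma on log2(TPM + 1) and log2(TPM + 0.1) and with a block by description number. Without each library in turn it was between 0 and 0. It was 2 (Tbx3 and Tbx15, both higher) with no filter on low counts and 2 (the same genes) with the replicate block by title number, and it was 3 with DESeq2, which added Tbx18. The numbers share no stated litter, day or animal. As deviations from group means, same-numbered libraries correlated at 0.0645 and 0.0409 by title and at -0.0237 and -0.0645 by description. With 2 controls, the deviation of Control 3 is that of Control 2 with its sign changed. These values are therefore not separate checks, and they cannot settle whether the numbers mark pairs. Across all genes the block by title called 140 higher and 25 lower and the block by description 10 and 0. The count of members with every PRC1 i2KO library above both controls, 3, was unchanged in TPM, as was that of 0 below. Over the alternatives the adjusted p ran from 1.16e-09 to 0.635 for Tbx15, from 4.79e-08 to 0.354 for Tbx3, from 0.0223 to 0.889 for Tbx18 and from 0.129 to 0.906 for Tbx6, each with the log2 fold change above 0 in 14 of 14. With a library left out Tbx5 ran from -0.01 (without PRC1 i2KO 3) to 1.11 and Tbx20 from -0.62 to 0.17 (without PRC1 i2KO 2), and neither was called under any alternative. Depth limits Tbx2, Tbx4 and Eomes, with at most 10 counts in any library. The causes of these shifts were not tested.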

Other observations

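The genes whose profile over the 5 libraries was nearest to a T-box member, by the root mean square difference of centred log2 CPM, are given as a description. Nearest to Tbx3 was Edn2, an endothelin gene, at 5.59, 4.67 and 5.95 CPM in PRC1 i2KO, against 0.244 and 0 CPM in Control (difference 0.188), and it was the 1 gene within 0.25. Nearest to Tbx15 was Krt8, a keratin of simple epithelia, at 3.35, 1.06 and 1.90 CPM in PRC1 i2KO, against 0.0203 and 0.0793 CPM in Control (difference 0.218), followed by 1700001O22Rik (0.220). Tbx18 lay nearest to Fam171a2 (0.150) and to the cell adhesion gene Ncam1 (0.157), which was at 7.65, 11.9 and 5.25 CPM in PRC1 i2KO, against 2.68 and 2.7 CPM in Control. None of these was called by edgeR, with adjusted p of 0.141 for Edn2, 0.177 for Krt8 and 0.337 for Ncam1. Tbx20 lay nearest to Hoxc4 (0.0832), which was likewise low in PRC1 i2KO 2, at 8.89, 1.85 and 7.18 CPM in PRC1 i2KO, against 7.19 and 6.51 CPM in Control. Tbx1 had 3005 genes within 0.25, a flat profile shared by many genes.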
